A study of Schizosaccharomyces pombe with 2 samples.

Results

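Genes for ribosome assembly and for subunits of RNA polymerases I and III were followed in log-phase fission yeast, Schizosaccharomyces pombe, with and without a nitric oxide donor. They were chosen by name, as every gene whose platform symbol is utp, rrp, rpa or rpc followed by digits, or is one of 15 further names, and the rule itself uses no measured value, though it was written with earlier results of these data known. The rule found 46 genes, 27 assembly factors and 19 polymerase subunits, among 2896 S. pombe genes with a probe set naming that gene alone. All 46 had 1 probe set each and lay above background on both arrays. The platform symbols were the same as the RefSeq symbols for 45 of them, and the gene called rrp12 on the platform (SPBC1105.01) has only its locus name in RefSeq.

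The untreated array carried RNA of cells that received no donor, and the treated array carried RNA of cells given 0.5 mM DETA NONOate, which releases nitric oxide slowly in solution, for 2 h. Both cultures grew to mid-log phase in the rich medium YES at 30 °C, and the labels give no genotype, no strain and no mock incubation for the untreated culture. A control with spent donor was not analysed here, so nitric oxide and the carrier molecule cannot be told apart as the source of a difference. Each group has 1 Affymetrix Yeast Genome 2.0 array. The differences below therefore have no replicate error and no p-value, and 1 array per group is what limits their precision.

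A growing yeast cell spends much of its transcription on ribosomes. RNA polymerase I transcribes the precursor of the large ribosomal RNAs in the nucleolus, and RNA polymerase III makes the small 5S ribosomal RNA and the transfer RNAs. The precursor is modified by small nucleolar ribonucleoproteins (snoRNPs), cut and folded in the small-subunit processome, trimmed by the exosome, and built into the large subunit by a series of GTPases, helicases and scaffold proteins. In S. cerevisiae the genes for these factors are known to be transcribed together and to follow growth conditions.

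All 46 genes were lower on the array of donor-treated cells, though rpc25 only by a log2 ratio of −0.0036, which turned above 0 under the 3 other scalings tried, leaving 45. Their median log2 ratio, treated over untreated, was −0.48 (1.39-fold lower), against −0.01 over all 2889 measured genes. The middle 50% of all measured genes lay between −0.23 and 0.19. Most members differed by little: 14 of 46 were at least 1.5-fold lower, against 6.61% of all measured genes, and 2 of 46 were at least 2-fold lower, against 2.04%. A ratio below 0 was found for 50.8% of all measured genes. No member was 1.5-fold higher, against 5.68% of all genes, or 2-fold higher, against 2.25%. The share past 2-fold was thus near the background, and the share past 1.5-fold was above it. Of the 46 genes, 38 lay in the lowest 25% of all measured ratios and 22 in the lowest 10%.

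These values come from bulk RNA, in which less of a transcript per cell and fewer cells carrying it cannot be told apart. The 2 arrays had nearly the same trimmed mean, 500.29 and 500.32, so they appear to have been scaled to it, though the scaling is not stated. The ratios are then relative to the rest of the array. The added control RNAs, 64 probe sets above background, had a median log2 ratio of −0.03 with an SD of 0.24, and their ratios ran from −0.76 to 0.42. Of the 46 members, 37 were below 0 by more than this SD, and 9 were below the lowest control ratio. Over all 2889 measured genes, the lowest 25% lay below −0.23, close to the first of these cuts. The highest of the 9 members, rpa49 at −0.77, stood at percentile 4.05 of all measured genes. Of the 64 control probe sets, 4 were below the members' median. Differences between cultures are not in the control spread.

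**Figure D1:**
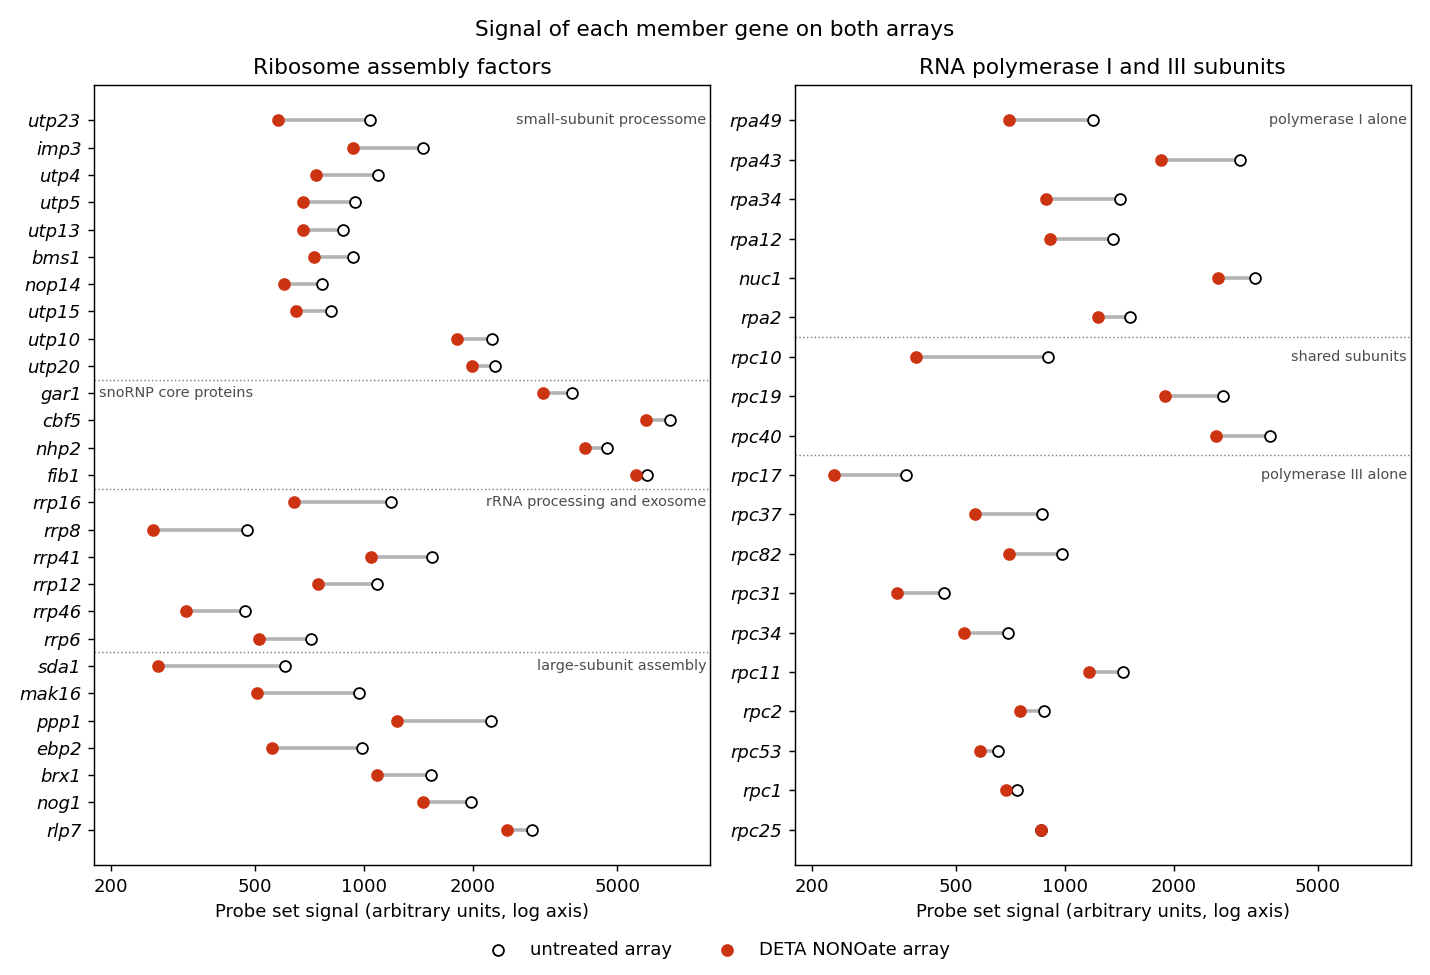
Signal of each of the 46 genes on the untreated array (open points) and the DETA NONOate array (filled points), on a log axis in arbitrary units, grouped by role. The filled point lies to the left of the open point for 45 genes, and both points coincide at this scale for rpc25, with signals of 861 and 859 and a direction that depends on the scaling.

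Assembly factors and polymerase subunits were alike in the middle of their distributions. The median log2 ratio was −0.48 for the 27 assembly factors and −0.48 for the 19 polymerase subunits. At least 1.5-fold lower were 8 of 27 assembly factors and 6 of 19 subunits, and each class held 1 gene that was at least 2-fold lower. Over all measured genes these shares were 6.61% and 2.04%, which also stand beside each such count given below. The ratios ran from −1.17 to −0.10 among assembly factors and from −1.21 to −0.00 among subunits, so the ranges overlapped almost entirely.

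**Figure D2:**
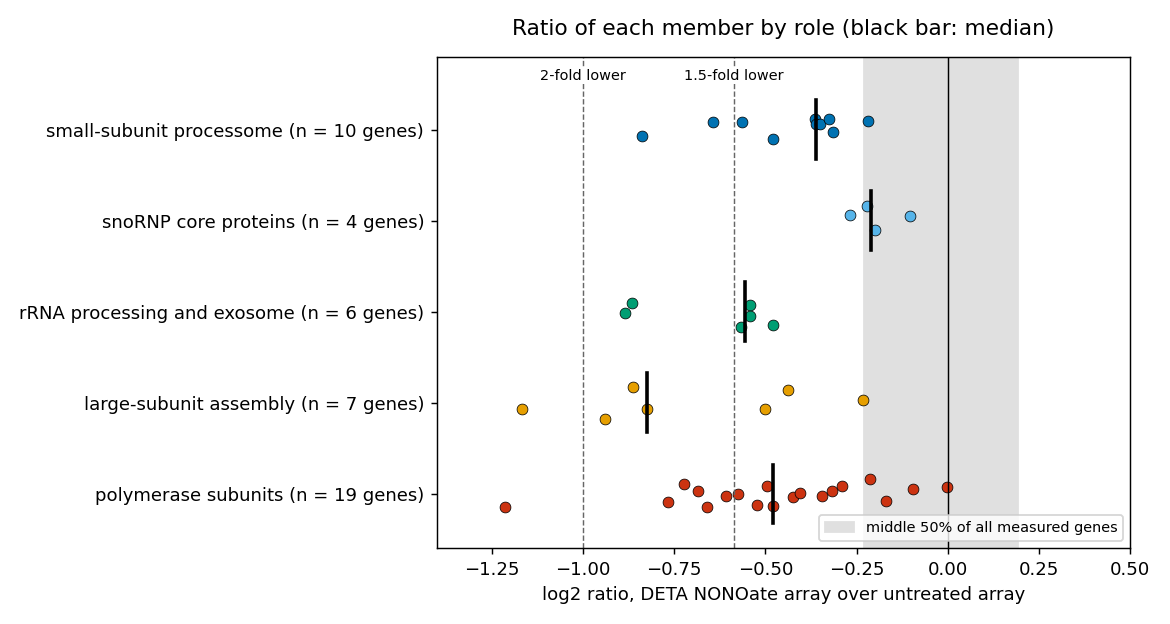
Log2 ratio of each gene, treated over untreated array, by role, with the median as a black bar, dashed lines at 1.5-fold and 2-fold lower and the middle 50% of all measured genes in grey. The bar lies at −0.82 for large-subunit assembly and at −0.21 for the snoRNP core proteins.

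Factors of large-subunit assembly had the lowest median of the 4 assembly roles, −0.82 (1.77-fold lower) over 7 genes. The gene sda1 (SPBC106.14C), whose S. cerevisiae counterpart is needed for large-subunit formation, had signals of 605 untreated and 270 treated and was 2.24-fold lower. Signals of mak16 (SPAC222.06), which encodes a protein of early large-subunit precursors, were 971 and 506. Those of ppp1 (SPBC19F5.05C), which encodes the pescadillo-family protein of the same precursors, were 2237 and 1231. Together with ebp2, these 3 genes made up the 4 in this role that were at least 1.5-fold lower. The nucleolar factor gene ebp2 (SPAC17H9.05) had signals of 988 and 558. Signals of brx1, which encodes a partner of early precursors, were 1535 and 1084, and its log2 ratio of −0.50 was closer to the members' median. The GTPase gene nog1 (1970 and 1455, log2 ratio −0.44) and rlp7 (2918 and 2483, −0.23), for a relative of ribosomal protein L7, differed least. The role therefore spanned nearly the whole range of the assembly factors.

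Genes of rRNA processing and of the exosome had a median log2 ratio of −0.55 over 6 genes, the second lowest. The gene rrp16 (SPAC22F8.09), also called nop53, acts in late large-subunit maturation in S. cerevisiae, and its signals were 1184 and 641, or 1.85-fold lower. The methyltransferase gene rrp8 (SPAC56F8.09) had signals of 475 and 261 and was 1.82-fold lower. These were the 2 genes of the role past 1.5-fold. The 3 exosome genes lay close together, with log2 ratios of −0.57 for rrp41 and −0.54 for rrp46, which encode proteins of the exosome ring, and −0.48 for rrp6, which encodes its nuclear exonuclease. Signals of rrp41 were 1545 and 1042. The gene rrp12 had a log2 ratio of −0.54.

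In the small-subunit processome, the large particle in which the small-subunit RNA is first folded and cut, the median log2 ratio was −0.36 over 10 genes. The gene utp23 (SPCC18.12C) had signals of 1036 and 580, or 1.79-fold lower, and imp3 (SPAC19D5.05C), for a protein bound to the U3 snoRNA, had signals of 1456 and 933, or 1.56-fold lower. No other gene of the role reached 1.5-fold. The 4 members of the UtpA complex, which in S. cerevisiae binds the precursor first, had log2 ratios of −0.56 for utp4, −0.48 for utp5, −0.33 for utp15 and −0.31 for utp10. Signals of utp4 were 1092 and 739. The remaining genes had ratios near these, with −0.36 for utp13 of the UtpB complex, −0.36 for the GTPase gene bms1 and −0.35 for nop14. The gene utp20, for a very large scaffold protein, had signals of 2304 and 1981 and the ratio nearest to 0 in the role, −0.22.

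The 4 snoRNP core genes had the median log2 ratio nearest to 0 among the assembly roles, −0.21. As single genes, utp20 and rlp7 of other roles lay nearer to 0 than gar1. The fibrillarin gene fib1 (SPBC2D10.10C), whose product methylates ribosomal RNA under guidance of box C/D RNAs, had signals of 6032 and 5617, a log2 ratio of −0.10. The pseudouridine synthase gene cbf5 (SPAC29A4.04C) had signals of 6987 and 5994. Its partners in the box H/ACA particle, nhp2 and gar1, had signals of 4673 and 4066 and of 3758 and 3123. The log2 ratios of cbf5, nhp2 and gar1 were −0.22, −0.20 and −0.27, so these 3 genes were within 0.07 of each other. That closeness held only with the deposited scaling. After quantile normalization their ratios were −0.33, −0.16 and −0.25. With a smooth trend of ratio on signal removed they were −0.31, −0.21 and −0.23. The gene for the particle's remaining core protein, nop10, is not covered by the naming rule, and its log2 ratio was lower, at −0.51, with signals of 4896 and 3429.

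Among assembly factors, genes with brighter probe sets had ratios nearer to 0. Spearman's rho between mean signal and log2 ratio was 0.60 across the 27 assembly factors, −0.08 across the 19 polymerase subunits and 0.05 across all 2889 measured genes. These are descriptions across genes that share the same 2 arrays, not tests, and signal levels of different probe sets do not rank transcript levels. The 7 members with a mean signal of at least 2500 (rpc40, nuc1, gar1, rlp7, cbf5, nhp2 and fib1) had log2 ratios from −0.50 to −0.10. With a smooth trend of ratio on signal removed over all genes, the snoRNP core genes had a median of −0.22 and large-subunit assembly one of −0.79. That trend is not the one within the assembly factors, so whether signal accounts for the difference between roles was not tested.

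**Figure D3:**
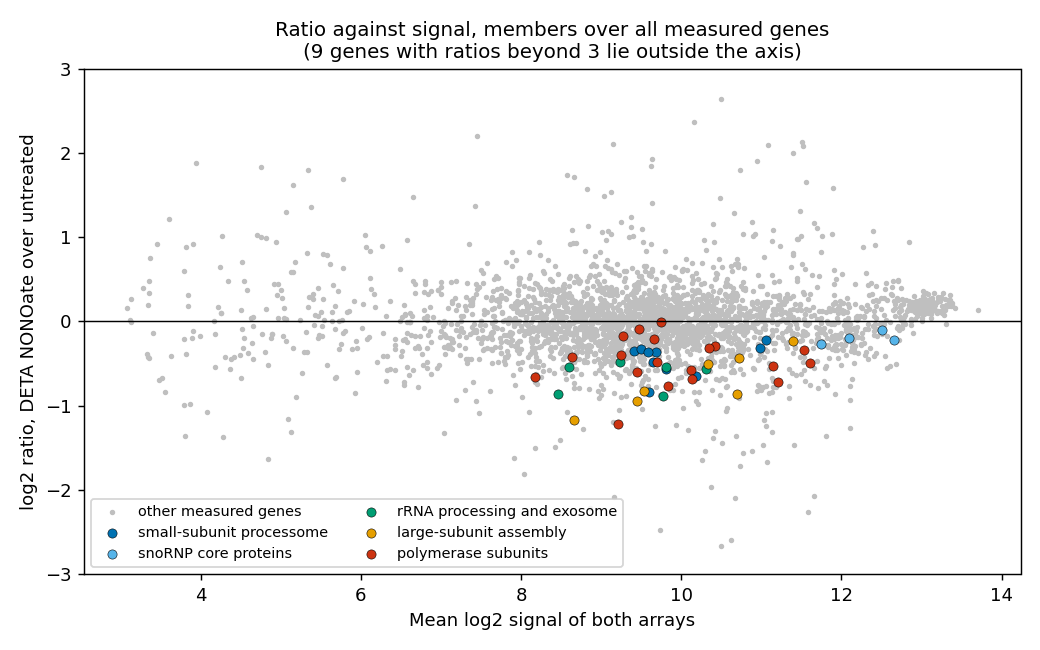
Log2 ratio against mean log2 signal for all measured genes (grey) and the 46 members (coloured by role), with 9 genes outside the axis. The members form a band below 0 across their range of signal, and the snoRNP core genes lie at its bright end with ratios between −0.27 and −0.10.

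The medians of polymerase subunits differed by enzyme. The 6 member subunits found in polymerase I alone had a median log2 ratio of −0.63, with 3 of 6 at least 1.5-fold lower. The 10 subunits of polymerase III alone had a median of −0.36, with 2 of 10 past 1.5-fold. The ranges overlapped, from −0.77 to −0.29 for polymerase I and from −0.66 to −0.00 for polymerase III. With 1 array a group no test of this difference exists.

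For polymerase I, rpa49 (SPAC2F3.03C) and rpa34 (SPBC11G11.05) encode a pair of proteins that form a heterodimer on the enzyme, and their values were close. The signals of rpa49 were 1194 and 702, or 1.70-fold lower, and those of rpa34 were 1423 and 885, or 1.61-fold lower. The gene rpa43 (SPBC3B9.07C), for a protein of the stalk through which the initiation factor Rrn3 binds, had signals of 3049 and 1846 and was 1.65-fold lower. These 3 peripheral subunits were the ones past 1.5-fold. The RNA-cleavage subunit gene rpa12 had signals of 1356 and 911, or 1.49-fold lower. The largest subunit gene, nuc1 (SPBC4C3.05C), had signals of 3349 and 2640, and the second largest, rpa2 (SPBP23A10.07), had 1512 and 1236, with log2 ratios of −0.34 and −0.29. The 2 genes for the catalytic core thus had the ratios nearest to 0 among the 6. The gene ker1 (SPBC1718.03), for the stalk partner of Rpa43, falls outside the naming rule and was lower than all 6, with signals of 663 and 375 and a log2 ratio of −0.82.

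In polymerase III the catalytic pair lay nearer to 0 than in polymerase I. The signals of rpc1 (SPBC651.08C), the largest subunit, were 737 and 690, and those of rpc2 (SPAC4G9.08C), the second largest, were 874 and 754, with log2 ratios of −0.09 and −0.21. Over both enzymes, the 4 catalytic subunit genes had a median log2 ratio of −0.25, and the other 15 subunit genes had one of −0.52, a grouping made after the values were seen. Among those 15, rpc25 and rpc53 lay nearer to 0 than the catalytic subunit gene rpc2.

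Of 3 small assemblies within polymerase III, the subunits of 1 lay close together and those of 2 lay apart. The trimer that opens the promoter, encoded by rpc82, rpc31 and rpc34, had log2 ratios of −0.48, −0.42 and −0.40. Signals were 980 and 703 for rpc82, 463 and 345 for rpc31, and 699 and 528 for rpc34. The 3 genes lay within 0.08 of each other. The pair of rpc37 and rpc53, which works in initiation and termination, was unequal, with signals of 863 and 567 for rpc37 (SPCC330.13) and 655 and 582 for rpc53 (SPCC18.07). The stalk pair was still more unequal. The gene rpc17 (SPAPB1E7.10) had signals of 364 and 230 and was 1.58-fold lower, while its partner rpc25 (SPBC2G5.07C) had signals of 861 and 859, the ratio nearest to 0 of all 46 genes. The gene rpc11, for the RNA-cleavage subunit, had signals of 1451 and 1164 and a log2 ratio of −0.32, nearer to 0 than the −0.57 of its polymerase I relative rpa12.

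Subunits shared between enzymes had a median log2 ratio of −0.52 over 3 genes, between those of polymerase I and polymerase III. The gene rpc10 (SPBC19C2.03), whose product is part of polymerases I, II and III and which RefSeq also lists as rpb12, had signals of 901 and 389. At 2.32-fold lower it had the smallest ratio among the 46 genes and the 44th lowest of all 2889. The genes rpc40 and rpc19 encode the pair on which polymerases I and III are assembled, and their signals were 3695 and 2621 and 2726 and 1896. Their log2 ratios of −0.50 and −0.52 were nearly equal.

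Polymerase II gave a point of comparison. Its 11 measured rpb genes had a median log2 ratio of −0.26, with 9 below 0 and 3 at least 1.5-fold lower. The genes for its largest subunits, rpb1 (740 and 755) and rpb2 (2537 and 2610), had log2 ratios of 0.03 and 0.04. The 4 rpb genes whose products also serve polymerases I and III were lower, with −0.68 for rpb8, −0.60 for rpb5, −0.45 for rpb6 and −0.26 for rpb10, a median of −0.53. The 7 rpb genes of polymerase II alone had a median of −0.21. Their lowest member was rpb9, at −0.71 with signals of 217 and 132, so the grouping, which was made after the values were seen, did not separate the genes completely.

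**Figure D4:**
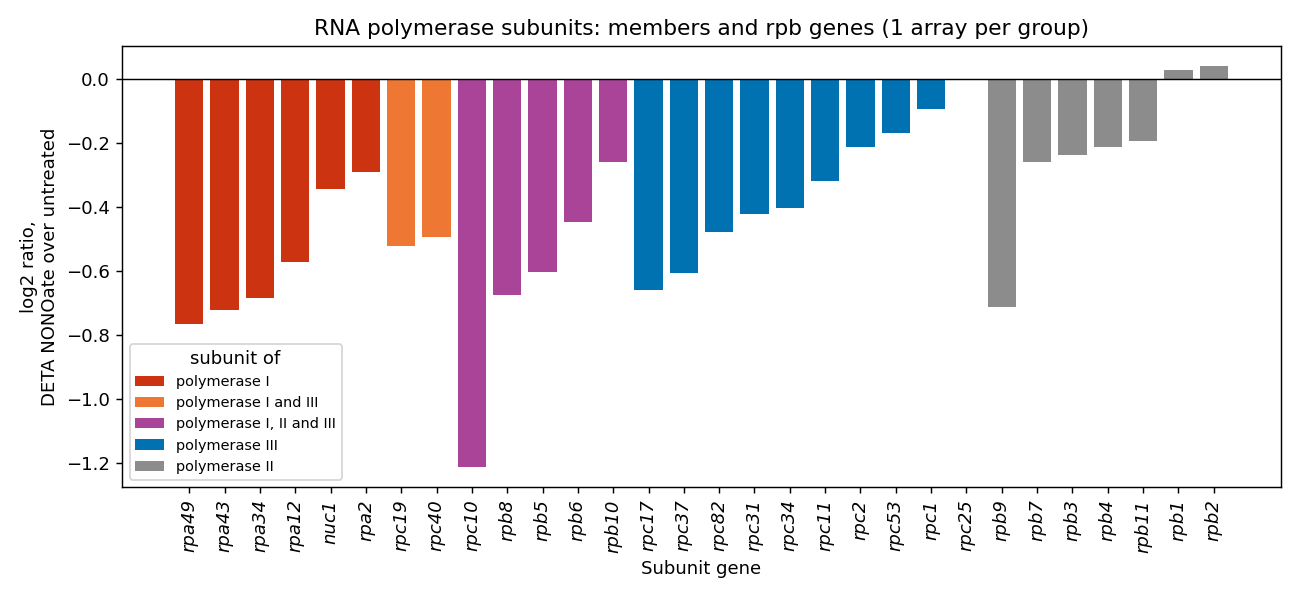
Log2 ratio, treated over untreated array, for the 19 member subunit genes and the 11 rpb genes, coloured by the enzymes that contain the subunit (1 array per group, no error bars). The lowest bar is rpc10 at −1.21, the bar of rpc25 is too short to see at −0.00, and rpb1 and rpb2 lie above 0.

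Genes of the same pathway outside the naming rule were taken from lists chosen for this purpose. Of 48 further assembly factor names, 18 matched a measured gene, and all 18 had ratios below 0, with a median log2 ratio of −0.48. The names were matched by symbol alone and products were not checked. Some of the 18, such as drs1 (−0.29) and dim1 (−0.16), may therefore encode other proteins in S. pombe. With these included, the median was equal to that of the members. At least 1.5-fold lower were 5 of the 18 and at least 2-fold lower were 0. The lowest was the helicase gene dbp3, with signals of 1205 and 647 and a log2 ratio of −0.90, and the ratio nearest to 0 was that of snu13, for a box C/D snoRNP protein, with −0.16. The 4 measured exosome partners had ratios between −0.55 for air1 and −0.13 for dis3, the catalytic subunit.

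The list of initiation factors of polymerases I and III, which also holds the repressor gene maf1, did not share the members' direction as a group. Of 16 measured genes, 10 had ratios below 0 and 6 above, with a median log2 ratio of −0.13, and none reached 1.5-fold either way. The polymerase I factor gene rrn3 had the lowest ratio, −0.47, with signals of 845 and 612, and rrn6 had the highest, 0.38, with signals of 616 and 803. The gene maf1, for the repressor of polymerase III, had signals of 257 and 312 and a log2 ratio of 0.28. The 6 sfc genes, for factors of polymerase III, had a median of −0.05.

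The protein components of cytosolic ribosomes differed from the assembly factors. Of 118 measured genes for cytosolic ribosomal proteins, 107 had ratios above 0 and 11 below, with a median log2 ratio of 0.16 and none 1.5-fold apart. That direction depends on the scaling, since quantile normalization gave a median of −0.01 and removal of the signal trend one of 0.02. Near-identical copies of many of these genes may share probe signal. Mitochondrial ribosomal protein genes mostly shared the members' direction, with 36 of 39 below 0, a median of −0.24 and 5 at least 1.5-fold lower. The lowest of them, mrpl16 at −1.24, was below every member. Of 14 translation initiation factor genes, 12 were below 0, with a median of −0.19 and none past 1.5-fold. With the deposited scaling, median centring, quantile normalization and the trend removed, the medians of assembly factors and of polymerase subunits were lower than those of these 3 lists.

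The array also carries probe sets for S. pombe ribosomal RNA, the product of polymerase I. The 7 probe sets had log2 ratios from −0.14 to 0.33. In the 28S RNA the signals were 8514 and 10489 at the 5′ part and 8524 and 10702 at the 3′ part, and in the 18S RNA they were 9455 and 8567 at the 5′ part and 6585 and 7038 at the 3′ part. None of the 7 differed 1.5-fold, and the parts of the 18S RNA went both ways. These signals reflect ribosomal RNA present in the labelled sample, which in growing cells is mostly mature, and give no rate of transcription.

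**Figure D5:**
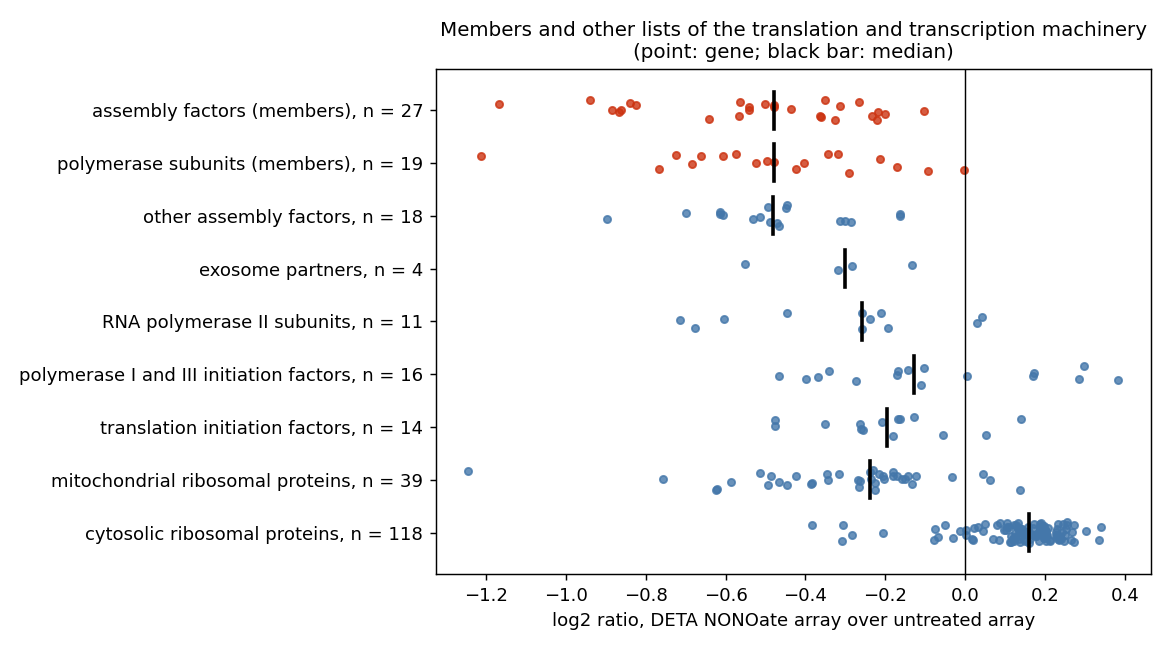
Log2 ratio, treated over untreated array, of each gene in the 2 member classes (red) and in 7 other lists (blue), with each list's median as a black bar. The bars of both member classes and of the other assembly factors, a list matched by symbol alone, lie at −0.48. That of the cytosolic ribosomal proteins lies at 0.16.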

How the data were processed

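RNA of 1 untreated and 1 DETA NONOate-treated S. pombe culture was measured on Affymetrix Yeast Genome 2.0 arrays from 250 ng total RNA, per the labels' protocols. The authors deposited linear intensities, 1 per probe set. The submitters' processing notes name Affymetrix Expression Console, with its version and algorithm not given in the sources used here. These intensities had 2% trimmed means of 500.29 and 500.32.

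A platform annotation gave each probe set its gene. RefSeq's ASM294v3 table, matched on gene id, gave current S. pombe symbols and gene neighbours only. Signals were raised to a floor, the 95th percentile of 2593 S. cerevisiae probe sets (7.99 and 8.76), before log2 was taken. A gene was measured if it passed the floor on 1 array. Of several probe sets for 1 gene, the brightest was used. The ratio is log2 treated minus log2 untreated, with no test. All polymerase subunits and the 10 lowest and 5 highest assembly factors were to be named with signals, and the others by role. Members and lists were chosen with earlier results of these data known. The planned search of promoters for motifs was not run, and no sequence is printed. Steps were tested on simulated data. Python 3.11.15, pandas 2.3.3, SciPy 1.17.1 and statsmodels 0.14.6 were used.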

Additional observations from a re-analysis of the deposited data

Results flagged for a closer look

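The array carries 39 S. cerevisiae probe sets with the same names as members. Their median signals were 1.38 untreated and 1.17 treated. The S. cerevisiae IMP3 probe set, which belongs to no comparison of the report, had signals of 3.73 untreated and 9.05 treated. Of the 39 it alone passed the background, which was 8.76 on the treated array. The S. pombe imp3 probe set had signals of 1456 and 933 and went in the other direction. No outlier search among samples was possible with 1 array per group.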

How the results depend on the processing

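No paired analysis was possible because each group has 1 array and no result comes from a test. The difference of the medians, polymerase subunits minus assembly factors, was −0.00029 on the log2 scale and has no stable sign: it was 0.011 after quantile normalization, 0.0011 with the signal trend removed, and 0.028 without rpc10, the subunit also found in polymerase II. Under alternatives added after the data were seen it was 0.061 without the snoRNP core genes, 0.12 with subunits of polymerase III alone, −0.15 with those of polymerase I alone and 0.049 with means. For rpc25 the log2 ratio of −0.0036 became 0.016 with median centring, 0.030 after quantile normalization and 0.029 with the trend removed. At a threshold of 3-fold, also added, 0 members were lower. The other 365 of 368 single-gene values kept their direction and moved by less than the control SD of 0.24. Many of these were fixed in advance. The settings for the floor percentile, for several probe sets and for a minimum signal of 100 could not change any member. Every member has 1 probe set and signals above those limits. Members at least 1.5-fold lower numbered 13 or 14 under the 8 planned settings, those without effect included, and members at least 2-fold lower numbered 2. The members' median stayed between −0.48 and −0.45. The planned removal of members by RefSeq product was not run, because the table used here names no products. All members' signals lay between 230 and 6987, far above the floor, so background limits none of them.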

Other observations

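The members lie on all 3 chromosomes, 17 on I, 23 on II and 6 on III, with median log2 ratios of −0.52, −0.42 and −0.49. Their immediate neighbours among protein-coding genes did not share their direction. For 37 members at least 1 neighbour was measured, which gave 56 neighbouring genes that are not members, 28 of them with a ratio below 0 and a median log2 ratio of −0.00. At least 1.5-fold lower were 6 of the 56, against 6.61% of all measured genes, and 2 were at least 2-fold lower, against 2.04%. One of the 2 is the succinate dehydrogenase gene sdh3 beside rpc37, with signals of 3647 and 576. The other is ubp11, for a ubiquitin-specific protease, beside rpc10, with signals of 1504 and 640 and a log2 ratio of −1.23, close to the −1.21 of rpc10 itself. The neighbour hmt2 of rpc25 had signals of 4424 and 5979, a log2 ratio of 0.43. Members close to each other in the genome were few, namely ppp1 and utp4 with 2 protein-coding genes between them, and bms1 with brx1 and rpc53 with utp23, each with 4 between them.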
